A study of Mus musculus with 12 samples.

Results

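The BCL2 family decides whether the outer membrane of mitochondria stays closed or is opened to start the intrinsic pathway of apoptosis. Survival proteins (BCL2, BCL-XL and MCL1) hold the executioners BAX and BAK in check, and BH3-only proteins (BIM, BID, PUMA, NOXA and BIK) bind the survival proteins or activate the executioners when a cell is under stress. Once the executioners form pores, cytochrome c leaves the mitochondria and activates caspases with APAF1. In the mammary gland this balance is known for the death of milk-producing cells at weaning and for the survival of HER2-driven tumor cells, in which signaling by the receptor restrains BIM. The genes described here were the 10 members chosen by name out of 16411 genes in the table: the survival genes Bcl2, Bcl2l1 (BCL-XL) and Mcl1, the executioner genes Bax and Bak1, and the BH3-only genes Bcl2l11 (BIM), Bid, Bbc3 (PUMA), Pmaip1 (NOXA) and Bik.

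RNA had been sequenced from 6 tumors of the mammary gland and 6 pieces of benign mammary tissue, all from female mice of the genotype MMTV-Neu-NDL-YD5 transgenic on an FVB background, with no treatment. The MMTV promoter drives this activated form of the HER2 receptor, Neu, in mammary epithelium, so the benign samples carried the transgene too, and they were whole mammary tissue without a visible tumor taken far from the tumors of tumor-bearing mice. No mouse gave both a tumor and a benign sample for RNA, and the age of each mouse was not given in the sources used here. Benign libraries held 5240853 to 8170687 counts and tumor libraries 6111393 to 8588567. Levels are given in CPM, each gene's count as a share of its library's total on a common scale, with totals adjusted for composition by TMM, and a gene was called when its adjusted p-value in edgeR's quasi-likelihood test was under 0.1.

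The labels and the tissue were checked first. Erbb2, the gene of the receptor carried by the transgene, ranged from 44.8 to 73.7 CPM in benign tissue and from 1989 to 16634 CPM in tumors. Summed markers of white fat ranged from 6982 to 16179 CPM in benign tissue against 8.25 to 86.5 CPM in tumors, and summed luminal epithelium markers from 855 to 2220 CPM against 2139 to 3937 CPM, with 4 of 6 luminal genes called higher and 1 lower. Some benign libraries stood apart from the others. In benign sample 1 the 6 lymphocyte markers summed to 676 CPM, against 4.50 to 6.57 CPM in benign samples 2 to 6 and 0.256 to 4.72 CPM in tumors. In benign samples 3, 4 and 6 the muscle markers summed to 31291 to 81494 CPM, against 15.2 to 338 CPM in benign samples 1, 2 and 5 and 0.84 to 141 CPM in tumors. Of these, benign samples 4 and 6 also held brown fat markers, at 2830 and 802 CPM against 31.0 to 176 CPM in the other benign samples, and few cycling cell markers, at 24.0 and 13.8 CPM against 145 to 475 CPM. In such bulk samples, fewer cells of a type and less RNA per cell cannot be told apart, and the part of these tissue differences in the results below was not tested beyond the fits without those libraries.

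Transcripts of 3 members rose in tumors (Bcl2l11, Bid and Bik, all BH3-only genes), 3 fell (Mcl1, Bax and Pmaip1) and 4 were not called (Bcl2, Bcl2l1, Bak1 and Bbc3). All 10 members passed the filter on low counts. Over the 13191 genes tested, 63.0% were called, 28.2% higher and 34.8% lower, so 6 called members of 10 were a share close to that of all genes. The median log2 fold change was 0.08 over the members and -0.06 over all genes tested. Tumor and benign values did not overlap for 3 members, Bid and Bik above and Mcl1 below, against 35.9% of all genes tested. Without benign sample 1, which held the lymphocyte transcripts, 4 members were called higher and 2 lower (background 31.5% and 32.4%), as Bcl2 gained its call and Pmaip1 lost its own. Without benign samples 3, 4 and 6 the counts stayed at 3 and 3 (background 26.7% and 28.7%). Without benign samples 1, 3, 4 and 6, which left 2 benign samples, 2 members were called higher and 2 lower (background 23.5% and 25.8%).

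**Figure D1:**
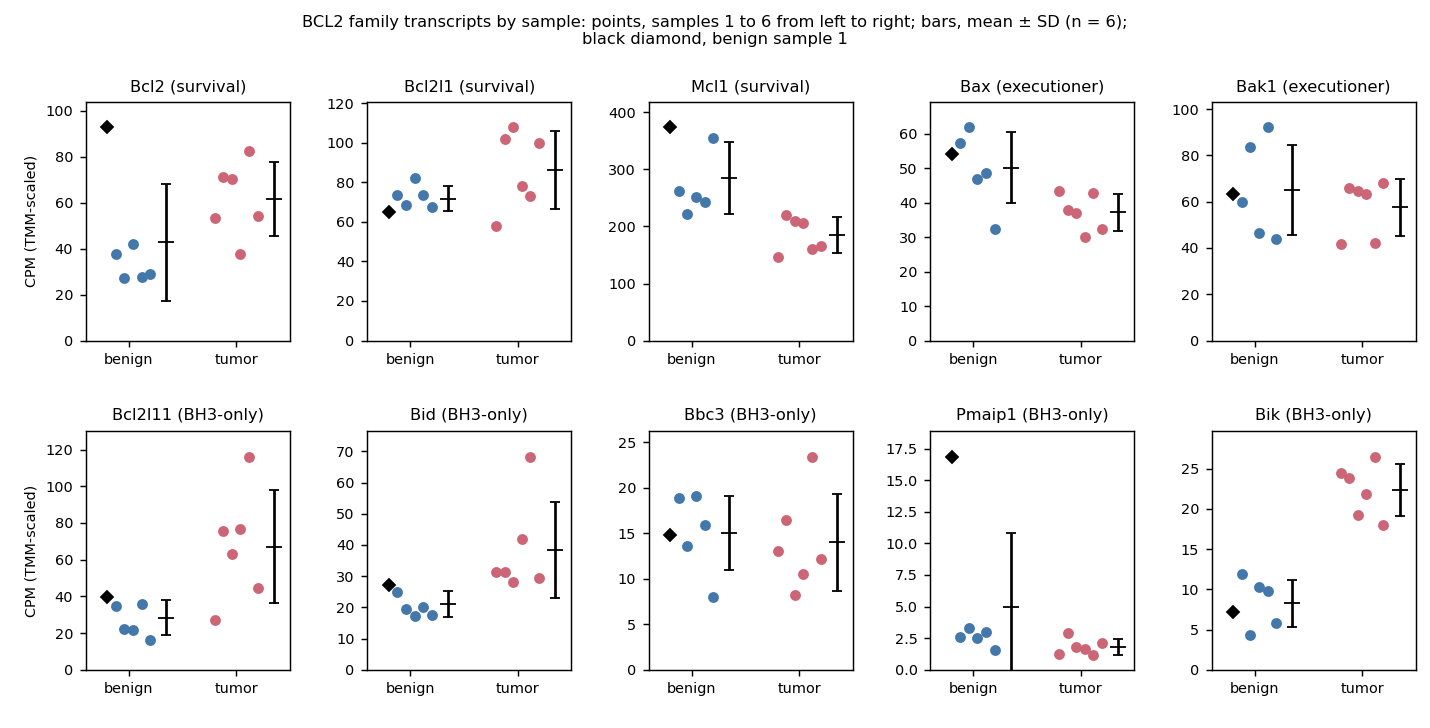
Levels of the 10 members in each library on linear axes of TMM-scaled CPM, with benign samples in blue, tumors in rose, benign sample 1 as a black diamond and bars for the mean ± SD (n = 6). Bik and Bid in tumors lie above every benign sample and Mcl1 below every one, while Bcl2 and Pmaip1 are highest in benign sample 1, at 92.6 and 16.9 CPM.

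The stretches upstream of the start sites are shown for BH3-only genes that rose (Bcl2l11 and Bid) and for the survival and executioner genes that fell (Mcl1 and Bax), because these members moved in opposite directions at the level of transcripts. Each is the 250 bases before the RefSeq start on GRCm38.p6, 5′ to 3′ on the strand of the gene, at chr2:128125788-128126037 (plus) for Bcl2l11, chr6:120916825-120917074 (minus) for Bid, chr3:95658471-95658720 (plus) for Mcl1 and chr7:45466899-45467148 (minus) for Bax. Capitals mark matches on either strand to the GC box GGGCGG, the ETS core CCGGAA, the FOXO motif GTAAACA, the E-box CACGTG and the CRE core TGACGT.
Bcl2l11 promoter: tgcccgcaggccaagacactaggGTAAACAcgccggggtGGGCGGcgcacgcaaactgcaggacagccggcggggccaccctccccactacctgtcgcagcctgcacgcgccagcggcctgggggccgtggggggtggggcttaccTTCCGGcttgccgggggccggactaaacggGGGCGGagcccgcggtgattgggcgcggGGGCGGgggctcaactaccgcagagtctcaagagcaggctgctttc
Bid promoter: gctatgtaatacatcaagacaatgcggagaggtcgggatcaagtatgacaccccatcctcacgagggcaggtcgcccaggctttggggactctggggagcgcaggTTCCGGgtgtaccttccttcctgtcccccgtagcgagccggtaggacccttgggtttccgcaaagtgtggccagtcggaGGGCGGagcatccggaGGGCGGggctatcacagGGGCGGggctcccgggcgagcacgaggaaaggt
Mcl1 promoter: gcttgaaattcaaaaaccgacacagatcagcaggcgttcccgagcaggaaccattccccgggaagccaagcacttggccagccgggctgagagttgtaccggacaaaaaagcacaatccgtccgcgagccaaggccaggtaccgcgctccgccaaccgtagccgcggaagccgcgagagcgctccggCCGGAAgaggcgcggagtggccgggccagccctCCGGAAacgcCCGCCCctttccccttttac
Bax promoter: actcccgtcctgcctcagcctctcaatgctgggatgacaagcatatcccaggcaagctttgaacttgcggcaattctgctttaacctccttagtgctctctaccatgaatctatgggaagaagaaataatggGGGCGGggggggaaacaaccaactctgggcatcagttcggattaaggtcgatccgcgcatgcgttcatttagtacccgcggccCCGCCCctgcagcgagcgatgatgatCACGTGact
The Bcl2l11 window held 3 GC boxes, 1 ETS core and 1 FOXO motif, that of Bid 3 GC boxes and 1 ETS core, that of Mcl1 1 GC box and 2 ETS cores, and that of Bax 2 GC boxes and 1 E-box. Among 32536 RefSeq promoter windows of the same length, 33.0% held a GC box, 12.1% an ETS core, 3.17% the FOXO motif, 6.04% the E-box and 6.50% the CRE core. Of the 8 members whose windows were searched, 6 held a GC box, 3 an ETS core and 1 each of the other motifs. GC content was 72.0% for Bcl2l11, 63.6% for Bid, 64.4% for Mcl1 and 54.0% for Bax, against a mean of 53.3% over all windows. The Bid window reached 29 bases past the GENCODE start, and the RefSeq start of Mcl1 lay 67 bases before the GENCODE one. Such matches describe letters and were not tested as binding sites.

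Among the survival genes, Mcl1 fell and neither Bcl2 nor Bcl2l1 was called. Mcl1 encodes a short-lived survival protein needed by many epithelial and blood cells (GRCm38 chromosome 3, 95658788 to 95663176). It ranged from 221.1 to 373.7 CPM in benign tissue, with a median of 257.4, and from 146.5 to 221.0 CPM in tumors, with a median of 185.8. Every tumor lay below every benign sample, although the highest tumor and the lowest benign sample were almost level. The mean fell from 284.6 ± 63.4 to 184.8 ± 31.1 CPM (SD, n = 6 each), a log2 fold change of -0.62 (SE 0.16, adjusted p = 0.0055). Benign sample 1 was the highest for Mcl1, and without it the log2 fold change was -0.48 (SE 0.16, adjusted p = 0.022).

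Bcl2, the founding survival gene, ranged from 27.0 to 92.6 CPM in benign tissue with a median of 33.2, and from 37.5 to 82.5 CPM in tumors with a median of 62.2. Benign sample 1 was above all tumors, while all 6 tumors were above the benign median. With all samples the difference missed the threshold, at 42.6 ± 25.2 against 61.5 ± 16.2 CPM and a log2 fold change of 0.53 (SE 0.31, adjusted p = 0.16). The other 5 benign samples averaged 32.6 ± 6.82 CPM and reached 42.0 CPM at most, and 5 of 6 tumors were above that. Against these 5 the log2 fold change was 0.96 (SE 0.21, adjusted p = 0.0018). With benign sample 1 kept, Bcl2 was called in some other fits, at 0.71 without tumor 4 (adjusted p = 0.073) and at 0.55 with muscle markers and Ucp1 as covariates (adjusted p = 0.076). Bcl2 was not called without the benign samples that held muscle transcripts, at 0.28 (SE 0.36, adjusted p = 0.55). That fit also kept benign sample 1. Lymphocytes are known to depend on Bcl2, and their part in the value of benign sample 1 was not tested.

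Bcl2l1, which encodes the survival protein BCL-XL and its shorter splice form, ranged from 65.0 to 82.3 CPM in benign tissue (median 71.0) and from 57.8 to 107.7 CPM in tumors (median 89.0). Tumors spread over a wider range than benign samples, with 3 above all of them and 1 below. The means of 71.7 ± 6.15 and 86.4 ± 19.7 CPM gave a log2 fold change of 0.27 (SE 0.15, adjusted p = 0.14), with 1.96 standard errors reaching from -0.02 to 0.56. Leaving out single libraries gave a call in 4 fits, at 0.42 without tumor 1, the lowest tumor (adjusted p = 0.013), 0.36 without tumor 4 (adjusted p = 0.069), 0.38 without tumor 5 (adjusted p = 0.047) and 0.34 without benign sample 2 (adjusted p = 0.093).

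Of the executioners, Bax fell slightly and Bak1 was not called. BAX moves from the cytosol to mitochondria when activated, whereas BAK resides there, and either can open the membrane. Bax (chromosome 7, 45461697 to 45466898) ranged from 32.3 to 61.9 CPM in benign tissue (median 51.3) and from 30.1 to 43.4 CPM in tumors (median 37.5). All 6 tumors were below the benign median, and benign sample 6 lay among them. The log2 fold change was -0.43 (SE 0.15, adjusted p = 0.030), from 50.2 ± 10.4 to 37.3 ± 5.34 CPM. The call rested on single libraries, since the adjusted p was 0.12 without benign sample 2, 0.13 without tumor 4 and 0.12 without tumor 6. Bak1 ranged from 44.0 to 92.0 CPM in benign tissue (median 61.6) and from 41.6 to 67.8 CPM in tumors (median 63.9), with the groups overlapping. Its log2 fold change was -0.17 (SE 0.21, adjusted p = 0.49), with 1.96 standard errors from -0.58 to 0.23.

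**Figure D2:**
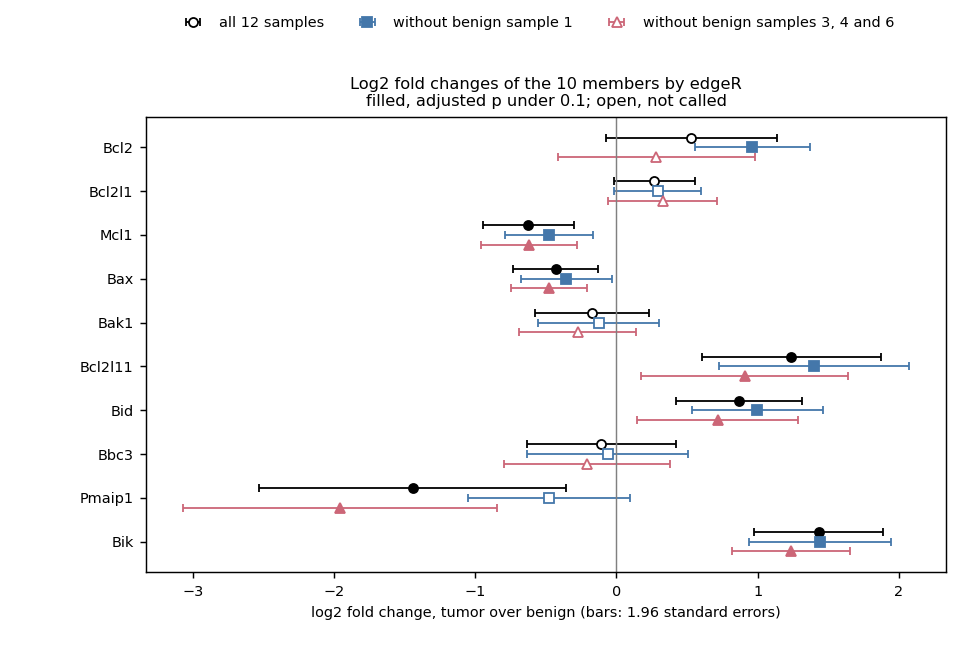
Log2 fold changes of tumor over benign by edgeR for each member, with bars of 1.96 standard errors, for all 12 samples (black circles), without benign sample 1 (blue squares) and without benign samples 3, 4 and 6 (rose triangles). Filled symbols are called genes, and the calls of Bcl2 and Pmaip1 differ between the first and the second fit, at 0.53 against 0.96 and -1.44 against -0.48.

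With all 12 samples the BH3-only genes held all 3 rises and 1 of the 3 falls, that of Pmaip1. The rises were larger than the falls of Mcl1 and Bax on the log2 scale, but not than that of Pmaip1 (-1.44), which rested on benign sample 1. Without benign sample 1 the survival gene Bcl2 was called higher as well. Bik, whose product acts at the endoplasmic reticulum and mitochondria (chromosome 15, 83526862 to 83544634), was low in benign tissue, from 4.35 to 11.9 CPM with a median of 8.48, and ranged from 18.0 to 26.5 CPM in tumors with a median of 22.8. No tumor overlapped the benign range. The mean rose from 8.24 ± 2.90 to 22.3 ± 3.23 CPM, 2.71-fold, with a log2 fold change of 1.43 (SE 0.23, adjusted p = 1.8e-04), and without benign sample 1 it was 1.44.

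Bcl2l11 encodes BIM, which binds all survival proteins and is the BH3-only protein most tied to loss of growth factor signaling (chromosome 2, 128126038 to 128162547). It ranged from 16.2 to 39.6 CPM in benign tissue (median 28.6) and from 26.9 to 116.1 CPM in tumors (median 69.4). Tumor 1 lay inside the benign range and the other 5 above it. The mean rose 2.36-fold, from 28.4 ± 9.58 to 67.2 ± 30.7 CPM, with a log2 fold change of 1.24 (SE 0.32, adjusted p = 0.0053). Within the benign group the lowest values were in samples 3, 4 and 6, those with muscle transcripts, and without these the log2 fold change was 0.91 (adjusted p = 0.069). With benign sample 1 left out as well it was 0.94 and no longer passed (adjusted p = 0.13).

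Bid, which is cut by caspase-8 and carries the signal of death receptors to mitochondria (chromosome 6, 120891930 to 120916853), ranged from 17.3 to 27.0 CPM in benign tissue (median 19.8) and from 28.3 to 68.3 CPM in tumors (median 31.4). All tumors were above all benign samples, most of them by little and tumor 5 by far. The mean rose 1.83-fold, from 21.1 ± 4.08 to 38.4 ± 15.4 CPM, with a log2 fold change of 0.87 (SE 0.23, adjusted p = 0.0055). Without benign samples 3, 4 and 6 it was 0.72 (adjusted p = 0.066), and with benign sample 1 also left out 0.79 (adjusted p = 0.11). Tumor 5 was the highest tumor for Bcl2, Bcl2l11, Bid, Bbc3 and Bik alike.

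Bbc3, which encodes PUMA, a target of p53, ranged from 7.99 to 19.1 CPM in benign tissue (median 15.3) and from 8.18 to 23.4 CPM in tumors (median 12.6). The groups overlapped almost fully. Its log2 fold change was -0.11 (SE 0.27, adjusted p = 0.76), with 1.96 standard errors from -0.63 to 0.42, and it turned positive in some fits, as without tumor 3 (0.08). Pmaip1 encodes NOXA, which pairs mainly with MCL1 and was the least abundant member, with 8 to 91 counts per library. It stood at 16.9 CPM in benign sample 1, from 1.60 to 3.30 CPM in the other 5 benign samples and from 1.15 to 2.89 CPM in tumors. Apart from benign sample 1, the groups overlapped. The log2 fold change was -1.44 (SE 0.56, adjusted p = 0.041) with all samples and -0.48 (SE 0.29, adjusted p = 0.18) without benign sample 1, so the call rested on that library.

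**Figure D3:**
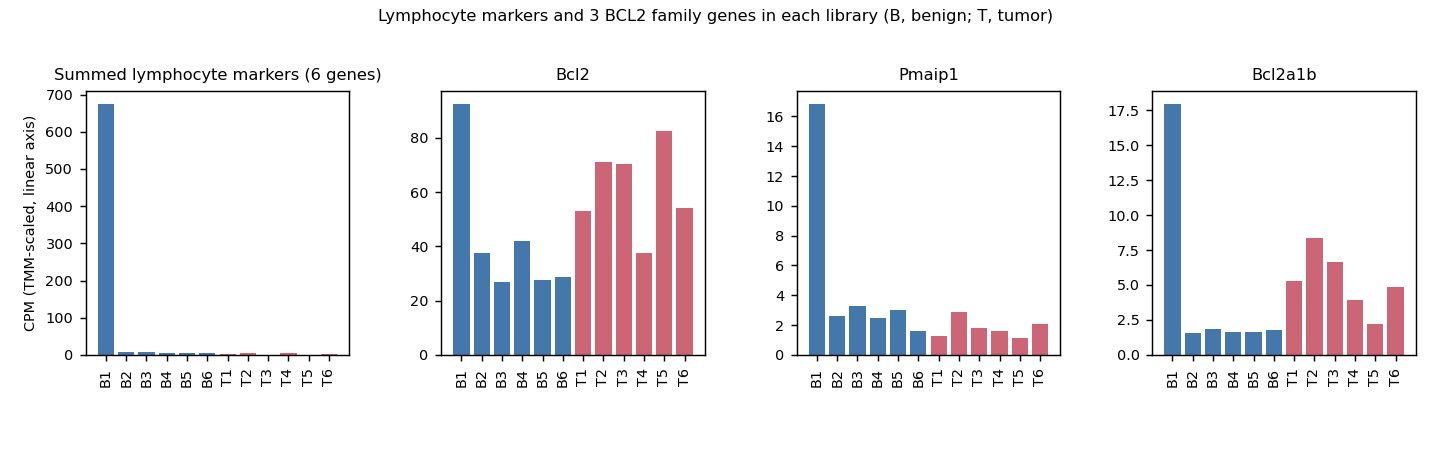
Summed CPM of 6 lymphocyte markers and CPM of Bcl2, Pmaip1 and Bcl2a1b in each library, on linear axes starting at 0, with benign samples (B1 to B6) in blue and tumors (T1 to T6) in rose. Benign sample 1 is highest in all 4 panels, at 676, 92.6, 16.9 and 18.0 CPM.

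Levels were compared between members per length, as CPM per kilobase of exon (union of exons, GENCODE M21). Mcl1 was the highest in both tissues, at 83.3 ± 18.5 CPM per kilobase in benign tissue and 54.1 ± 9.09 in tumors, and did not overlap the next gene in either. In benign tissue Bax (31.8 ± 6.57) and Bak1 (27.0 ± 8.09) came next and overlapped each other, Bcl2l1 followed at 15.6 ± 1.34 below both, and the remaining 6, from Bbc3 at 7.08 to Pmaip1 at 1.82, overlapped their neighbours. In tumors Bik followed Bcl2l1 (18.8 ± 4.30) at 14.0 ± 2.03, ahead of Bid (10.8 ± 4.34), Bcl2l11 (8.37 ± 3.82), Bcl2 (6.71 ± 1.77) and Bbc3 (6.58 ± 2.53), each overlapping the next, and Pmaip1 was apart at 0.66 ± 0.23. The order depended on the length used, since 6 members in benign tissue and 5 in tumors kept their rank when the longest coding transcript was taken.

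Within each library the make-up of the survival and BH3-only groups differed between the tissues. Of the summed survival level per kilobase, Mcl1 made up 80.0% ± 3.08 in benign tissue and 67.9% ± 3.73 in tumors, and the ranges of 76.6% to 85.3% and 63.6% to 74.0% did not overlap. Bcl2l1 made up 15.6% ± 3.40 and 23.5% ± 3.05, also without overlap, and Bcl2 4.35% ± 1.75 and 8.56% ± 2.45, with overlap. Of the BH3-only sum, Bbc3 was the largest share in benign tissue (30.2% ± 5.42) and Bik in tumors (35.7% ± 5.80). Bbc3 ranged from 23.1% to 37.5% and from 11.9% to 18.5%, without overlap, although its own level was not called. Shares were described with no test. With the longest coding transcript as the length the Mcl1 share was 70.6% and 56.3%, again without overlap, while the largest BH3-only share in benign tissue was that of Bid at 31.2%.

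The ratio of a survival to an executioner transcript within a library needs no scaling between libraries, and it was described as a log2 ratio of CPM with no test. Bcl2 over Bax averaged -0.36 ± 0.68 in benign tissue and 0.68 ± 0.31 in tumors, a difference of 1.04, with 3 of 6 tumors above the highest benign sample. That sample was benign 1, and without it all 6 tumors were above, with a difference of 1.27. Bcl2l1 over Bax averaged 0.54 ± 0.35 and 1.18 ± 0.48, with 4 of 6 tumors above every benign sample with or without benign sample 1. Bcl2 over Bak1 differed by 0.78 and Bcl2l1 over Bak1 by 0.39, with 1 and 0 tumors above the benign range. Without benign sample 1 these differences were 1.03 and 0.36, with 4 and 0 tumors above. The ratios of Mcl1 went the other way, as Mcl1 over Bax differed by -0.20 and Mcl1 over Bak1 by -0.46, with 1 tumor below the benign range in each.

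**Figure D4:**
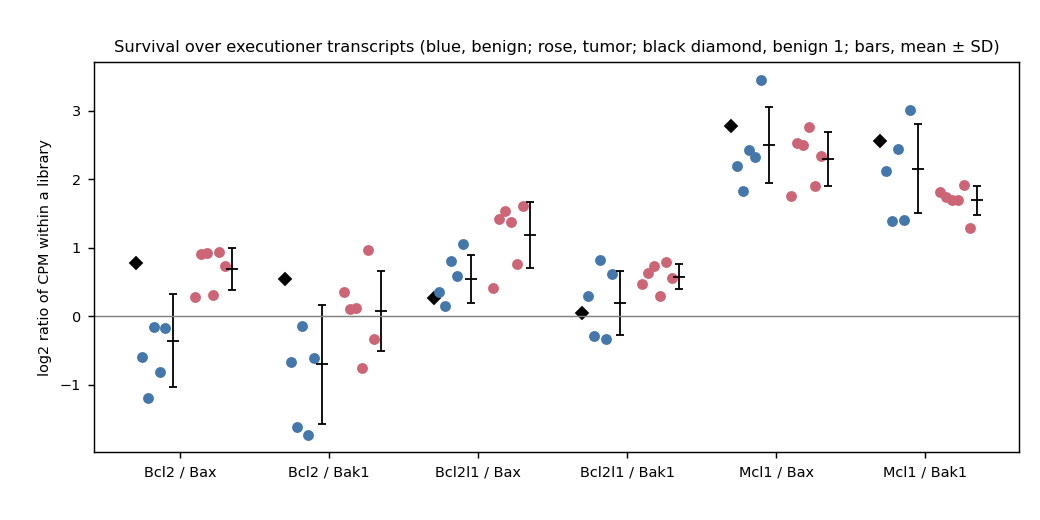
Log2 ratios of CPM of survival over executioner transcripts in each library, with benign samples in blue, tumors in rose, benign sample 1 as a black diamond and bars for the mean ± SD (n = 6). For Bcl2 over Bax the tumors center on 0.68 and the benign samples on -0.36, with benign sample 1 among the tumors, while the ratios of Mcl1 overlap widely.

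Outside the 10 members, 15 further BCL2 family genes were listed and 11 passed the filter, of which 1 rose and 4 fell (background 28.2% and 34.8%). Bcl2l14 (BCL-G) rose from 10.1 ± 4.76 to 69.0 ± 19.3 CPM, a log2 fold change of 2.76 (SE 0.32, adjusted p = 1.2e-05), and all tumors were above all benign samples. Bok, a relative of Bax and Bak1, fell from 10.7 ± 1.80 to 2.02 ± 0.64 CPM (-2.39, adjusted p = 2.0e-06) and Bnip3, a hypoxia-induced gene of mitochondrial turnover, from 329 ± 139 to 62.7 ± 21.5 CPM (-2.39, adjusted p = 1.9e-05), neither with overlap. Bcl2l15 fell from 13.8 ± 8.33 to 2.05 ± 1.59 CPM (-2.74, adjusted p = 0.0021) and Bcl2l12 by little, from 20.6 ± 4.20 to 16.2 ± 1.05 CPM (-0.35, adjusted p = 0.075), a call lost in 19 of 24 other fits.

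The BH3-only genes Bmf (-0.75, adjusted p = 0.22) and Bad (0.06, adjusted p = 0.72), the survival gene Bcl2l2 (0.12, adjusted p = 0.52) and the mitophagy receptors Bcl2l13 (-0.28, adjusted p = 0.14) and Bnip3l (-0.01, adjusted p = 0.96) were not called, and the sign of each turned in at least 1 other fit. Bmf was called lower without benign samples 3, 4 and 6 (-1.33, adjusted p = 0.042), as with muscle markers and Ucp1 as covariates (-1.34, adjusted p = 0.058), but was at 0.41 without benign samples 1, 2 and 5 (adjusted p = 0.53). Bcl2l2 was called without benign samples 3, 4 and 6 (0.38, adjusted p = 0.089) and Bcl2l13 without benign samples 1, 2 and 5 (-0.45, adjusted p = 0.036). Bcl2a1b, one of a set of near-identical A1 survival genes among which reads may be split, stood at 18.0 CPM in benign sample 1, from 1.55 to 1.85 CPM in the other benign samples and from 2.17 to 8.39 CPM in tumors. Its log2 fold change was 0.27 (adjusted p = 0.75) with all samples and 1.68 (SE 0.32, adjusted p = 8.8e-04) without benign sample 1. Without benign samples 3, 4 and 6 it was -0.33. The other A1 genes, Bcl2a1a and Bcl2a1d, were also highest in benign sample 1, at 8.89 and 5.74 CPM, and were below the filter.

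Also below the filter, Bcl2l10 had 2 to 19 counts in benign libraries and 0 counts in every tumor, at least 2.79-fold lower when tumors are set at 3 counts per library (exact permutation p = 0.0022, the smallest that 924 regroupings allow, adjusted p = 0.0087 over the 4 genes below the filter). Hrk, a BH3-only gene known from neurons, had 2 to 7 counts in benign libraries and 0 to 2 in tumors (exact permutation p = 0.0043, adjusted p = 0.0087). Of the A1 genes, Bcl2a1a passed the threshold of 0.1 as lower in tumors with all samples (exact permutation p = 0.074, adjusted p = 0.098). Apart from benign sample 1 at 8.89 CPM, its benign values of 0.36 to 1.71 CPM overlapped those of tumors, at 0 to 1.21 CPM. It was not compared without benign sample 1. Bcl2a1d did not pass (exact permutation, adjusted p = 0.51).

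**Figure D5:**
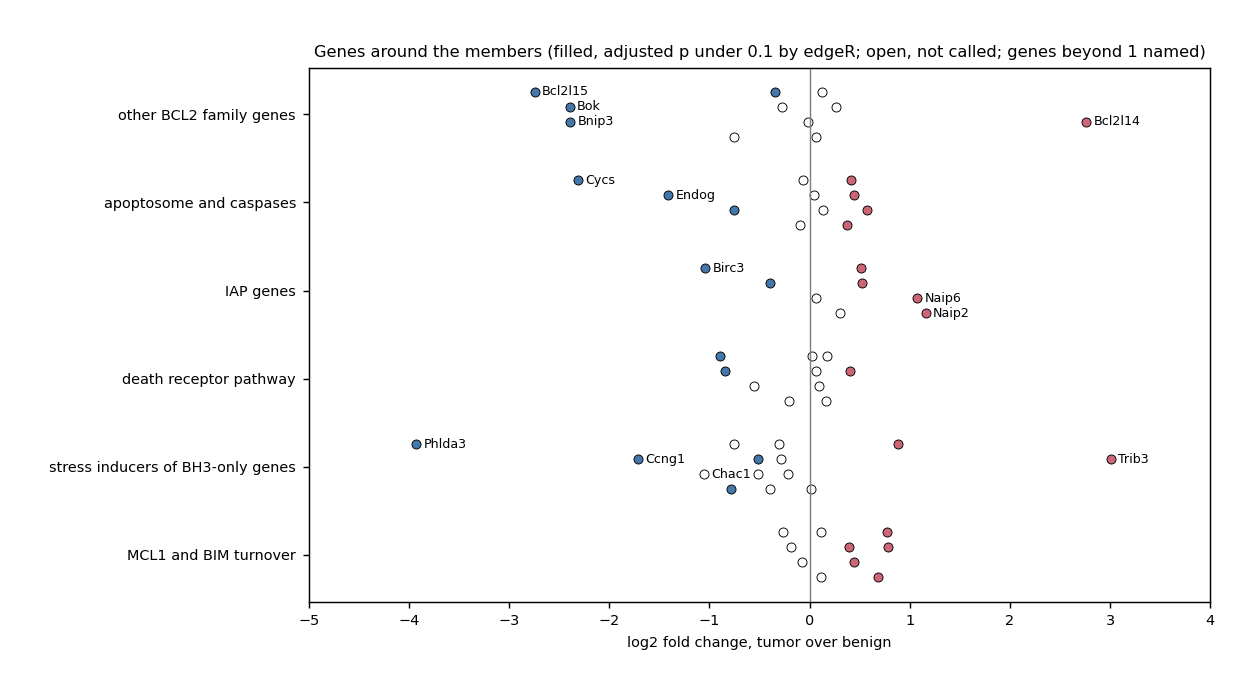
Log2 fold changes of tumor over benign by edgeR for tested genes of 6 lists around the members, filled where called (rose higher, blue lower) and named beyond 1 in either direction. The far points include Trib3 at 3.01 and Bcl2l14 at 2.76 on the right and Phlda3 at -3.93 and Bcl2l15 at -2.74 on the left.

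Downstream of the pores, 4 of 11 apoptosome and caspase genes rose and 3 fell (background 28.2% and 34.8%), with a median log2 fold change of 0.04. Among those that rose was Casp6, a caspase gene (22.5 ± 6.22 to 30.7 ± 2.13 CPM, log2 fold change 0.45, adjusted p = 0.034). Cycs, the cytochrome c gene, fell from 118 ± 69.3 to 23.8 ± 7.27 CPM (-2.31, SE 0.37, adjusted p = 1.6e-04) and Endog, a mitochondrial nuclease gene, also fell (-1.41, adjusted p = 0.0010). Without benign samples 3, 4 and 6, 1 apoptosome gene was called higher and 3 lower (background 26.7% and 28.7%). In that fit Casp6 was no longer called (0.21, adjusted p = 0.28), Cycs was at -1.35 (adjusted p = 0.0012) and Endog at -0.73 (adjusted p = 0.011). Cycs stood at 125 to 229 CPM in those 3 libraries with muscle transcripts, at 56.7 to 67.8 CPM in the other benign samples and at 14.2 to 33.0 CPM in tumors.

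Among genes listed as inhibitors of apoptosis, 4 of 8 tested genes rose and 2 fell (background 28.2% and 34.8%). The largest rises were of Naip2 (1.16, adjusted p = 0.0089) and Naip6 (1.07, adjusted p = 0.014), while Naip5 was not called (0.07, adjusted p = 0.87). These are related genes whose reads may be split. The falls were of Birc3 (-1.04, adjusted p = 0.012) and Birc2 (-0.40, adjusted p = 0.042), the ubiquitin ligase genes of TNF receptor signaling. Both Birc genes were highest in benign sample 1, Birc3 at 87.8 CPM and Birc2 at 84.9 CPM against 46.2 to 52.2 CPM in the other benign samples. Without that sample Birc2 lost its call (-0.18, adjusted p = 0.14) and Birc3 was at -0.68 (adjusted p = 0.034). Of 10 tested death receptor genes, 1 rose and 2 fell (background 28.2% and 34.8%). Cflar, an inhibitor of caspase-8, rose (0.40, adjusted p = 0.031), and Fas (-0.90, adjusted p = 0.029) and Casp8 (-0.85, adjusted p = 0.0025) fell. Casp8, whose product cuts BID, went from 49.0 ± 16.0 to 27.2 ± 3.69 CPM, opposite to Bid.

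The list on stress signaling to BH3-only genes held 14 tested genes, of which 2 rose and 4 fell (background 28.2% and 34.8%). It mixed transcription factors with known targets. With all samples, 1 of the 6 transcription factor genes tested was called, Foxo3. The other 5 calls (Trib3 higher, and Phlda3, Ccng1, Zmat3 and Sesn2 lower) were targets, with Sesn2 named after its value was seen. Other targets were not called, namely the p53 targets Mdm2 (0.02, adjusted p = 0.91) and Cdkn1a (-0.75, adjusted p = 0.18), and Chac1 (-1.06, adjusted p = 0.13). Among the factor genes not called were Atf4 (-0.31, adjusted p = 0.23), Ddit3 (-0.29, adjusted p = 0.43), Trp53 (-0.39, adjusted p = 0.18) and E2f1 (-0.51, adjusted p = 0.19), so the list did not move as a whole. Without benign samples 3, 4 and 6, Trp53 (-0.57, SE 0.13, adjusted p = 0.0048) and E2f1 (-0.61, adjusted p = 0.042) were called lower, while Foxo1, Atf4 and Ddit3 were not called. In that fit 2 genes of the list were called higher and 6 lower (background 26.7% and 28.7%). Trib3, a target of the integrated stress response, rose from 8.29 ± 2.13 to 66.8 ± 28.8 CPM (3.01, SE 0.27, adjusted p = 1.0e-06), and Foxo3, which encodes a transcription factor known to induce BIM and PUMA, from 80.5 ± 14.3 to 148 ± 33.5 CPM (0.88, adjusted p = 5.9e-04). Phlda3, a p53 target, fell from 189 ± 54.0 to 12.5 ± 5.07 CPM (-3.93, SE 0.30, adjusted p = 2.2e-07), and so did Ccng1, another (-1.71, adjusted p = 0.0042). Ccng1 was at 402 to 782 CPM in benign samples 3, 4 and 6, at 121 to 156 CPM in the other benign samples and at 86.8 to 127 CPM in tumors, and without benign samples 3, 4 and 6 its log2 fold change was -0.34 (adjusted p = 0.090). Among 10 genes listed around the turnover of the MCL1 and BIM proteins, 5 rose (background 28.2%) and 5 were not called. The rises included Gsk3b (0.69, adjusted p = 5.7e-05), Huwe1 (0.45, adjusted p = 0.0064) and Usp9x (0.39, adjusted p = 0.0087). The largest rises were of Mapk3 (159 ± 21.3 to 274 ± 28.6 CPM, 0.78, adjusted p = 9.3e-05), the ERK1 gene whose kinase marks BIM for degradation, and of Fbxw7 (34.0 ± 2.81 to 58.2 ± 12.1 CPM, 0.77, adjusted p = 3.3e-04), part of a ubiquitin ligase for MCL1. These are transcript levels, and the protein levels of the members were not analysed here.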

How the data were processed

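RNA was measured in 6 tumors and 6 benign mammary samples, grouped by their labels. Poly A RNA was sequenced, and the table deposited by the authors holds Salmon's estimated counts summed to genes, in whole numbers without scaling. The submitters' processing notes name Trim Galore, Salmon, DESeq2 and mm10, and the annotation and versions are not given in the sources used here. The table lists 16411 genes with at least 5 counts in all, and 0 of its columns lacked a sample. All 15 replicate pairs in each group differed by more than sampling noise (smallest chi-square per degree of freedom 12.5 in benign tissue and 16.4 in tumors).

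In R 4.3.3, edgeR 4.0.16 filtered genes by group (filterByExpr with a minimum of 10 counts and 15 in total), scaled libraries by TMM and ran its two-sided quasi-likelihood test. P-values were adjusted by Benjamini-Hochberg for 13191 tested genes and read at 0.1. The common biological coefficient of variation was 0.351. At the mean library 3 counts correspond to 0.414 CPM. Genes below the filter were compared by exact permutation of log2 CPM with 2 added counts, two-sided. The p-values of edgeR set the difference between tumor and benign samples against the spread between samples within the groups. Those of the permutation set it against all regroupings of the samples. Exon lengths were from GENCODE M21 (GRCm38), and promoter windows and start sites from RefSeq.

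The members and lists were chosen with earlier results of these data known. All members, all other family genes, the 2 called genes that rose most and the 2 that fell most in each other list, and the 2 genes nearest to each called member are named. The result of 1 gene that this rule names is not reported here. In simulated tumor against benign counts of 13191 genes, edgeR recovered 60% of 100 genes changed by 1 on the log2 scale and 94% of 100 changed by 2, with 9.41% of its calls false. DESeq2 recovered 66% and 94%, with 25.9% of its calls false. Far fewer genes were changed there than the 63.0% called in the data, and no change under 1 was simulated. These rates therefore may not hold for the data or for small changes. Alternatives were DESeq2 1.42.0, other scalings and filters, a stricter call at 0.05, a block on replicate number, muscle markers and Ucp1 as covariates, and fits without single samples or sets of benign samples. The fit without benign samples 1, 3, 4 and 6 was chosen after seeing the data.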

Additional observations from a re-analysis of the deposited data

Results flagged for a closer look

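Single libraries stood apart from the rest of their group in 10 of 62 groups of 6 samples, by the gap to the nearest other sample as a share of the group's range (Dixon's criterion). The criterion flags about 1 in 20 groups of independent, normally distributed values. These groups share libraries, and the ratios share genes, so that rate may not hold here. Benign sample 1 accounted for 5 of them, with Bcl2 at 92.6 CPM (next 42.0), Pmaip1 at 16.9 CPM (next 3.30), Bcl2a1a at 8.89 CPM, Bcl2a1b at 18.0 CPM and Bcl2a1d at 5.74 CPM. The 6 lymphocyte markers summed to 676 CPM in the same library, and their part in these values was not tested. Among tumors, Bid was at 68.3 CPM in tumor 5 (next 41.8), Bcl2l2 at 125 CPM in tumor 1 (next 89.5), Bok at 3.25 CPM in tumor 3 (next 2.06), and the log2 ratio of Mcl1 to Bak1 at 1.28 in tumor 6 (next 1.70). In benign sample 6, Bcl2l12 was low at 12.4 CPM (next 20.7).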

How the results depend on the processing

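Bik, Mcl1, Bcl2l14, Bok and Bnip3 kept direction and call in all 24 alternatives. Over single genes, 419 alternatives gave the same side of the threshold and direction, 23 gained and 30 lost a call and 28 turned sign. All 84 alternatives of the ratios moved the difference by less than 1 SD. Most of them left out a single sample, which cannot move a mean of these groups that far, so they could not have come out otherwise. Without benign sample 1, the tumors above every benign sample for Bcl2 over Bax went from 3 to 6. Of per-length levels, 10 of 20 moved with the longest coding transcript. At this depth Pmaip1, with 8 to 91 counts, was the least precise member. Where no cause is given it was not tested.

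Members called higher numbered 3, and 5 when genes with any count were kept (background 28.2% and 27.9%). In the latter fit Bcl2 (0.62, adjusted p = 0.096) and Bcl2l1 (0.35, adjusted p = 0.061) were called. Members called lower numbered 3, and 1 without benign samples 1, 2 and 5 (background 34.8% and 32.0%). DESeq2 called Bcl2l1 at 0.30 (adjusted p = 0.095) and total counts at 0.36 (adjusted p = 0.054). With total counts Bax lost its call (-0.35, adjusted p = 0.12), as without benign samples 1, 2 and 5 (-0.26, adjusted p = 0.28). Of the other family genes, 2 were higher without benign samples 3, 4 and 6, without 1, 2 and 5 and without 1, 3, 4 and 6, and 7 lower by DESeq2, which tests 16034 genes, and 2 with 10 counts in every sample. Apoptosome genes called higher were 2 by upper-quartile scaling and at 0.05, 0 with muscle markers and Ucp1 as covariates, 1 without benign samples 3, 4 and 6 and 0 without 1, 3, 4 and 6. IAP genes called lower were 1 with total counts, 0 without benign samples 1, 2 and 5 and 1 without 1, 3, 4 and 6. Death receptor genes called higher were 0 with the covariates and 2 without benign samples 1, 2 and 5, and called lower 1 there and 1 without 1, 3, 4 and 6. Stress genes called lower were 7 without benign samples 1, 3, 4 and 6. Over all genes tested, the alternatives of this paragraph called from 22.4% (covariates) to 32.8% (10 counts in every sample) higher. They called from 25.8% (without benign samples 1, 3, 4 and 6) to 34.6% (upper-quartile scaling) lower.

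Leaving out 1 sample at a time, members called higher ranged from 3 to 5 (5 without tumor 4) and lower from 2 to 3, other family genes higher from 1 to 2 and lower from 3 to 4, apoptosome genes higher from 2 to 5, IAP genes lower from 1 to 2, stress genes lower from 4 to 8 (8 without tumor 5) and turnover genes lower from 0 to 1. Over all genes tested in these fits, the share called higher ranged from 26.6% to 31.5% and the share called lower from 31.5% to 34.3%. The log2 fold change of Bbc3 ranged from -0.25 to 0.0771 and that of Bnip3l from -0.0817 to 0.13.

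Signs that turned were all of genes not called. Without benign samples 1, 2 and 5 they were Bak1 (0.0596), Bbc3 (0.11), Bcl2l2 (-0.0034), Bmf (0.41) and Bnip3l (0.0166). Without benign samples 3, 4 and 6 they were Bcl2a1b (-0.33), Bcl2l13 (0.0407) and Bnip3l (0.0564), and without 1, 3, 4 and 6 Bad (-0.0084) and Bnip3l (0.0318). With the covariates Bcl2l13 was at 0.0056 and Bnip3l at 0.17. Bnip3l was also at 0.0208 by DESeq2, 0.0206 with its size factors, 0.0870 with total counts, 0.0696 with any count kept and 0.0433 with 10 counts in every sample.

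Same-numbered tumor and benign samples came from different mice, and the correlations of their deviations ranged from -0.12 to 0.10, 1 of them over 0.1, with 0 of 6 samples correlating best with its own number. With the replicate number as a block, 3 members were higher and 2 lower (background 26.3% and 32.1%), since Pmaip1 was at -0.96 (adjusted p = 0.18). In that fit 1 IAP gene was lower.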

Other observations

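Over the 12 samples, the tested genes whose level followed each called member most closely were found by the root mean square difference of log2 CPM after each gene was centered on its mean, a description with no test in which all genes share the libraries. For Mcl1 they were Crtc3 (0.13) and Prkx (0.14), against a spread of Mcl1 itself of 0.40 (SD of log2 CPM). For Bax they were Zmat3 (0.17) and Chpf (0.17), with a spread of 0.32. Bid was followed by Inpp5f (0.11) and Arid2 (0.16), with a spread of 0.54, Bcl2l11 by Fam227a (0.26) and Zfp7 (0.28), with a spread of 0.82, and Bik by Mettl27 (0.26) and Meak7 (0.27), with a spread of 0.82. The genes nearest to Pmaip1 were Akna (0.30) and Irf8 (0.30), with a spread of 0.90, both known in lymphoid and other blood cells. Pmaip1 was at 4.10 log2 CPM in benign sample 1 and at 0.51 to 1.84 in the other libraries, so benign sample 1 weighed most in its distances. Other markers that differed between the groups, as summed CPM, were those of basal epithelium (513 to 1223 in benign tissue, 17.8 to 95.3 in tumors), endothelium (473 to 876 and 68.0 to 82.6), fibroblasts (1919 to 4531 and 194 to 411), macrophages (187 to 292 and 92.6 to 166) and brown fat (31.0 to 2830 and 3.30 to 19.9). Neutrophil markers summed to 5.15 to 21.1 and 3.84 to 8.67 CPM and cycling markers to 13.8 to 475 and 340 to 521 CPM, both overlapping.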
